A study of Mus musculus with 3 samples.

Results

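Ubiquitin system genes were followed here in CLK and BMAL1 ChIP-seq data of the mouse liver. They were taken by gene symbol. The symbols were those of Ube genes (ubiquitin enzymes, among them the conjugating ones), Fbxl, Fbxo and Fbxw genes (F-box proteins) and Cul genes (cullins). Trim genes (tripartite motif proteins), Rnf genes (RING finger proteins), Usp genes (deubiquitinases) and Psma to Psmg genes (proteasome subunits and assembly factors) were added. Of the 2127 peaks in the deposited table of bound regions, 29 were assigned to such a gene, and they belonged to 28 of the 1816 gene symbols that the table holds. Usp36 was the gene with 2 peaks. A symbol was given for 2052 of the 2127 peaks, so the other peaks could not be members.

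The livers came from adult C57BL/6 mice, 3 to 6 months old, that had been kept under 12 h light and 12 h dark for at least 2 weeks and were sampled at ZT8, 8 h after lights on. A single chromatin extract gave 3 libraries, which were a ChIP with an antibody against CLK, a ChIP with an antibody against BMAL1, and an Input without antibody that served as the control of both. They held 37371047, 28920754 and 18846303 tags, of which 33057959, 25217144 and 18206506 were unique, and 759 CLK and 1578 BMAL1 peaks were called. With 1 library per antibody and 1 time there is no replicate error and no test between conditions, so all comparisons below are descriptions of these libraries. Labelled tissue could not be checked against marker genes, since the data hold binding and no expression.

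CLK and BMAL1 are bHLH-PAS transcription factors that form a heterodimer, bind the e-box CACGTG and drive the circadian clock. Ubiquitin is attached to proteins by a chain of enzymes, in which an E1 activates it, an E2 carries it and an E3 ligase selects the substrate, while deubiquitinases remove it and the proteasome degrades what carries it. The clock depends on this system, since its repressor proteins are ubiquitinated and degraded in each cycle.

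An e-box lay within 100 bp of the summit, the position of highest tag density, in 9 of the 29 peaks (31.0%, exact 95% binomial interval 15.3 to 50.8). Of all peaks, 22.7% had one. All e-boxes of the peaks bound by both factors are printed first, because each of those 5 peaks had at least 1. Capitals mark CACGTG, which reads the same on both strands, and lower case gives the genome around it, on the plus strand of NCBIM37, the assembly behind mm9.
Rnf145, chr11:44332138-44332183: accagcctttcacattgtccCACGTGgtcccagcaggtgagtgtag
Rnf145, chr11:44332208-44332253: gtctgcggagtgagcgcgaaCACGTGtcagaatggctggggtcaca
Fbxl22, chr9:66359622-66359667: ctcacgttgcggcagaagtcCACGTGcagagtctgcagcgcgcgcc
Ube2g1, chr11:72422036-72422081: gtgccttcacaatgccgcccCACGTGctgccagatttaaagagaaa
Usp36, chr11:118127108-118127153: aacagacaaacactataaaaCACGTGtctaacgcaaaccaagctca
Usp36, chr11:118127159-118127204: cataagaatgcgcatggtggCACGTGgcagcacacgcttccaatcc
Usp28, chr9:48793095-48793140: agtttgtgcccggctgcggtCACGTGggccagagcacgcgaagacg

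Among the peaks bound by BMAL1 alone, 4 of 20 had an e-box in this window, and these are shown because they share the motif with the peaks above but lack a called CLK peak.
Fbxo30, chr10:11000765-11000810: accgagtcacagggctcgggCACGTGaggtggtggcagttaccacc
Trim37, chr11:86940673-86940702: gcgcgccggcgtCACGTGggccagggctcc
Rnf24, chr2:131135164-131135209: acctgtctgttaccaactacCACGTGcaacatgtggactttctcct
Usp42, chr5:144484624-144484669: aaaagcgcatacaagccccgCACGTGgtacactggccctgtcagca
None of the 4 peaks bound by CLK alone had one. Each of these 3 counts can be set beside the share in all peaks of its class, which was 59.2% for both factors, 22.0% for BMAL1 alone and 10.4% for CLK alone. In windows of about the same total length lying 400 to 500 bp to either side of the summit, 1 of the 29 peaks had an e-box (3.45%, against 2.87% of all peaks).

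Most of the ubiquitin system peaks were bound by BMAL1 alone. The classes are those of the deposited table, where a CLK and a BMAL1 peak that overlap by at least 1 bp count as shared. Both factors were called at 5 peaks (17.2%, interval 5.85 to 35.8), at Rnf145, Fbxl22, Ube2g1, Usp36 and Usp28, and 9.92% of all peaks were of this class. BMAL1 alone was called at 20 peaks (69.0%, 49.2 to 84.7), against 64.3% of all peaks. CLK alone was called at 4 peaks (13.8%, 3.89 to 31.7), at Ube2u, Psmd14, Rnf144a and Fbxo16, against 25.8% of all peaks. Each background share lay within the interval of the members. The intervals are wide, so a difference from the table as a whole is neither shown nor excluded for any class.

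**Figure D1:**
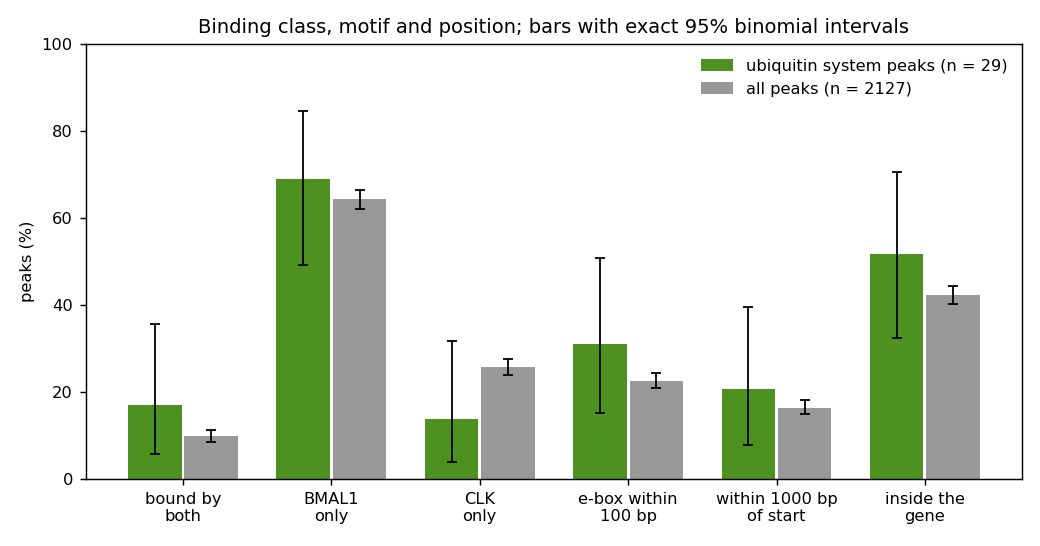
Share of peaks (%) in each binding class, with an e-box within 100 bp of the summit, within 1000 bp of the start of the assigned gene, and inside it, for the 29 ubiquitin system peaks (green) and all 2127 peaks (grey). Bars start at 0 and error bars are exact 95% binomial intervals; the grey share lies within the green interval in each of the 6 pairs.

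Each peak in the deposited lists carries a count of tags, a score, which is 10 times the negative log10 of the p-value that the peak caller MACS gave it, and a fold enrichment over the local background. Peaks with a score under 50 were not listed, so a peak called for 1 factor alone can still hold tags of the other below that threshold. Tag counts are given with exact 95% Poisson intervals, which cover counting error only, as tags copied by PCR are not independent molecules.

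The 5 shared peaks were led by Rnf145, which encodes a RING finger E3 ligase of the endoplasmic reticulum that acts on HMG-CoA reductase, the rate-limiting enzyme of cholesterol synthesis. At chr11:44331988-44332436, 731 bp upstream of the start site, the BMAL1 library had 69 tags (53.7 to 87.3), a score of 289.45 and a fold of 20.04. This was the BMAL1 peak of rank 31 among 1578, in the top 1.96%. The CLK library had 29 tags there (19.4 to 41.6), a score of 58.55 and a fold of 4.58, which placed it at rank 394 of 759. The same site was near the top of the BMAL1 list and in the middle of the CLK list. Its e-boxes lay 4 bp to the left and 66 bp to the right of the CLK summit, and a hexamer with 1 mismatch to CACGTG lay 7 bp from the nearer one.

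Fbxl22 encodes an F-box protein known from the muscle sarcomere. Its peak, at chr9:66359377-66359932, was centred 2729 bp into the gene and had its summit in a coding exon. BMAL1 gave 83 tags (66.1 to 103), a score of 221.73 and a fold of 11.06, and CLK gave 57 tags (43.2 to 73.9), a score of 87.70 and a fold of 5.45. Both libraries had more tags here than at Rnf145, while the BMAL1 fold was lower. The e-box lay 7 bp from the summit, in a window of 76.1% G and C, the highest among the 29 peaks. Fbxl22 was also the member with the hexamer CACGTT in this window, which 7.43% of all peaks held on either strand.

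Ube2g1 encodes an E2 enzyme that extends ubiquitin chains. The peak at chr11:72421786-72422237 lay in an intron, 1249 bp into the gene, and its e-box was 9 bp from the CLK summit. BMAL1 gave 46 tags (33.7 to 61.4), a score of 197.17 and a fold of 11.93. CLK gave 29 tags (19.4 to 41.6), a score of 58.55 and a fold of 5.76, the same tags and score as at Rnf145. The summits of both factors were 58 bp apart, the widest gap among the 5 shared peaks.

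Usp36 encodes a deubiquitinase of the nucleolus, and Usp28 a nuclear one known for stabilizing MYC. The shared Usp36 peak, at chr11:118126931-118127401, lay 24328 bp into the gene, where a non-coding Usp36 transcript has an exon. It had the highest CLK score of the members, 146.40, with 60 tags (45.8 to 77.2), a fold of 9.61 and rank 41 of 759. BMAL1 gave 68 tags (52.8 to 86.2), a score of 187.16 and a fold of 12.29. The values of both factors were closer here than at Rnf145, and both of its e-boxes lay within 50 bp of the summit, 5 and 46 bp away.

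The Usp28 peak, at chr9:48792822-48793339, lay 409 bp upstream of the start site with an e-box 23 bp from the summit and a 1 mismatch hexamer 8 bp from it. CLK gave 34 tags (23.5 to 47.5), a score of 63.56 and a fold of 7.28, and BMAL1 gave 36 tags (25.2 to 49.8), a score of 87.91 and a fold of 7.61. The tag counts were not scaled for the unlike depth of the libraries, so their overlapping intervals do not compare the binding of the factors. Of the 5 shared peaks this was the weakest in the BMAL1 list, at rank 301. Hexamers with 1 mismatch also lay near the e-boxes of Fbxl22 (12 and 18 bp), Trim37 (11 and 12 bp) and Rnf24 (3 and 15 bp). They are common, as 44.1% of all peaks had a hexamer with at most 1 mismatch in the flanking windows. Those windows are longer than the stretch beside each e-box, so this share is not a background for the short gaps.

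**Figure D2:**
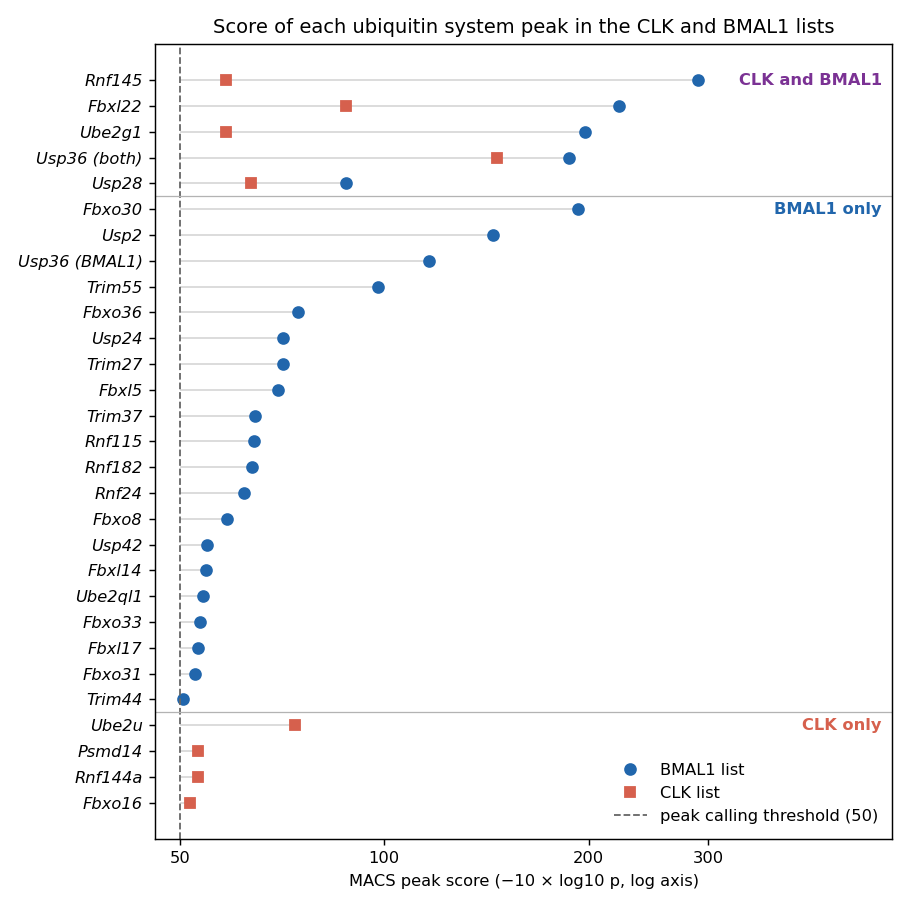
MACS score (log axis) of each of the 29 peaks in the BMAL1 list (blue circles) and the CLK list (red squares), grouped by binding class and ordered by score within it. At each of the 5 shared peaks the BMAL1 score is the higher one, and most peaks bound by BMAL1 alone sit between the threshold of 50 and a score of 74.59.

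The BMAL1 fold was above the CLK fold at all 5 shared peaks, and this was also so at 83.4% of the shared peaks of the whole table, or 176 of 211. Median fold at the 5 peaks was 11.93 in the BMAL1 list and 5.76 in the CLK list, where all 211 shared peaks had medians of 10.65 and 7.41. Summits of the CLK and BMAL1 peaks were 8 to 58 bp apart with a median of 21 bp, which was also the median of all shared peaks.

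**Figure D3:**
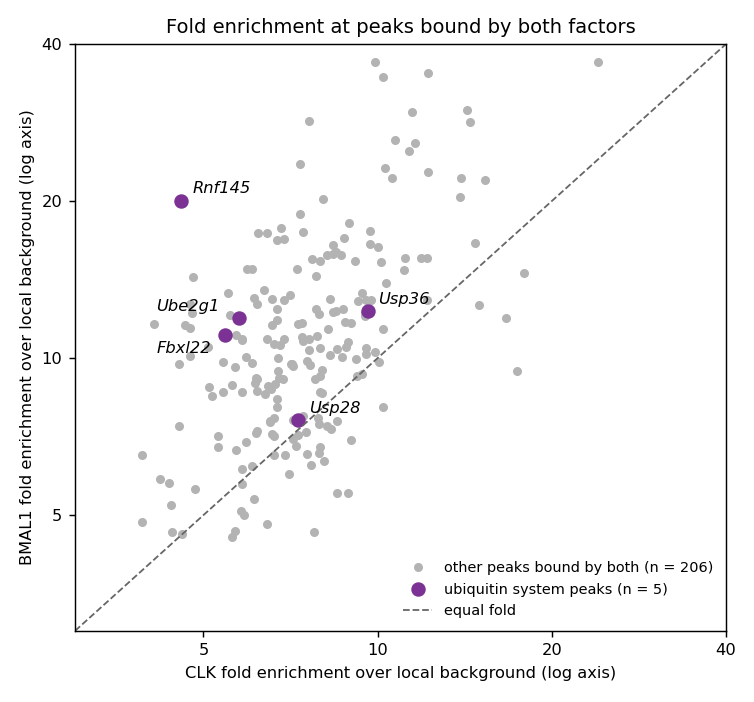
Fold enrichment of the BMAL1 peak against that of the CLK peak (both log axes) at the 5 ubiquitin system peaks (purple) and the other 206 peaks bound by both factors (grey); the dashed line marks equal fold. Rnf145 lies farthest above the line of the 5, at 20.04 against 4.58, and Usp28 lies next to it, at 7.61 against 7.28.

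Of the peaks bound by BMAL1 alone, Fbxo30, Usp2 and the second Usp36 peak had a score of at least 100. Together with 4 of the shared peaks they made 7 of 25 BMAL1 peaks at ubiquitin system genes (28.0%, interval 12.1 to 49.4), where 14.8% of all BMAL1 peaks reached that score. In the CLK list 1 of 9 reached it (11.1%, 0.281 to 48.2), against 12.4% of all CLK peaks. Of the 7 BMAL1 peaks with that score 5 had an e-box (71.4%), and of the 18 with a lower score 4 did (22.2%). Over all peaks of the table with a BMAL1 peak these shares were 60.3% and 21.2%.

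Fbxo30 encodes an F-box protein known from muscle atrophy. Its peak, at chr10:11000503-11001149, lay 345 bp upstream of the start site and within an exon of the non-coding gene 4930432B10Rik. It held 64 BMAL1 tags (49.3 to 81.7), a score of 193.04 and a fold of 13.48, with the e-box 11 bp from the summit. The BMAL1 score was above those of the shared peaks at Usp36 and Usp28, yet the nearest CLK peak was 210704 bp away.

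Usp2 encodes a deubiquitinase that acts on clock proteins. Its BMAL1 peak, at chr9:43893510-43894509, held 83 tags (66.1 to 103), a score of 144.73 and a fold of 10.49, and lay in an intron, 1007 bp from the start site. The annotation of Rnf26, a RING finger gene, also covers its summit. No CACGTG was found in the 1000 bp of the peak, although 2 hexamers with 1 mismatch lay near its summit. The nearest CLK peak was 1658379 bp away. Of 16 ubiquitin system genes listed for their known links to the clock, Usp2 had a peak and the others had none (6.25%, near the 6.70% of all coding gene symbols that had one).

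The second Usp36 peak, at chr11:118109729-118110747, held 58 BMAL1 tags (44.0 to 75.0), a score of 116.22 and a fold of 6.34. It lay 13054 bp beyond the end of the gene and 16184 bp from the CLK peak of the shared site. The nearest coding start site was not that of Usp36 but that of Cyth1, 102 bp away, so its assignment to Usp36 rests on the table alone. Next came Trim55, which encodes a RING finger protein of muscle, with 72 tags (56.3 to 90.7), a score of 97.83 and a fold of 5.03. Its peak was centred 15899 bp upstream of Trim55, and its summit was 287 bp from the start of another gene, 1700064H15Rik. Neither peak had an e-box in the window.

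The other 16 peaks bound by BMAL1 alone had scores between 50.59 and 74.59 and tag counts between 16 and 28. The median fold of all 20 was 6.825, near the 6.76 of the class as a whole. Fbxo36, an F-box gene, had the highest score of these (25 tags, fold 8.60, in an intron 47693 bp from the start site). Usp24, a deubiquitinase gene, followed with a score of 71.00, 28 tags and a fold of 5.53, from a site 382956 bp upstream of the gene. Trim27, an E3 ligase gene, had a score of 70.96, 26 tags and a fold of 7.89, 7336 bp beyond its end. These 3 sites were far from the start of the gene and had no e-box within 100 bp of the summit.

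Fbxl5, whose product senses iron and targets IRP2 for degradation, had a score of 69.76 with 22 tags and a fold of 6.76. Its peak was centred 24427 bp from the start site of the table, but its summit was 640 bp from the start of a shorter annotated transcript of the gene. Trim37, an E3 ligase gene mutated in mulibrey nanism, had a score of 64.61 with 27 tags (17.8 to 39.3) and a fold of 7.40. By the table its peak was the closest of the members to a start site, at 89 bp (113 bp from the nearest GENCODE start, where Fbxo33 was at 73 bp), and its e-box lay 6 bp from the summit. Rnf115, an E3 ligase gene, had a score of 64.35 with 21 tags and a fold of 7.99 in an intron, 56891 bp from the start site.

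Below these came Rnf182 (score 63.97), Rnf24 (62.24), Fbxo8 (58.66), Usp42 (54.83), Fbxl14 (54.68), Ube2ql1 (54.11), Fbxo33 (53.63), Fbxl17 (53.22), Fbxo31 (52.71) and Trim44 (50.59). Rnf24 had 17 tags (9.90 to 27.2) and a fold of 7.99, with an e-box 31 bp from the summit. Usp42 had 18 tags (10.7 to 28.4), and its e-box was 91 bp from the summit, near the edge of the window. Fbxo33 and Fbxo31, whose products select YB-1 and cyclin D1 for ubiquitination, had peaks 500 and 460 bp from the start site without an e-box. Trim44 was the weakest member of the BMAL1 list, at rank 1515 of 1578, with an FDR of 10.36%.

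The 4 peaks bound by CLK alone had scores between 51.84 and 73.84, and their median fold was 6.83 where all peaks of the class had 6.185. Ube2u, which encodes an E2 enzyme, had 22 CLK tags (13.8 to 33.3), a score of 73.84 and a fold of 7.41, in an intron 41096 bp from the start site. Psmd14, which encodes the deubiquitinase of the proteasome lid, had 18 tags (10.7 to 28.4), a score of 53.28 and a fold of 7.31 at 25662 bp upstream of the gene. It was the one proteasome subunit gene in the table. Rnf144a, an E3 ligase gene, had 19 tags, a score of 53.23 and a fold of 6.35 at 202373 bp beyond its end. Fbxo16, an F-box gene, had 18 tags, a score of 51.84 and a fold of 5.82 in an intron. The nearest BMAL1 peak was between 228171 and 2039896 bp from these sites, and none had CACGTG anywhere in the peak.

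By FDR, which MACS estimates by swapping ChIP and Input, 17 of the 25 BMAL1 peaks of the members were at 5% or less (68.0%, interval 46.5 to 85.1), against 47.7% of all BMAL1 peaks. In the CLK list it was 1 of 9 (11.1%, 0.281 to 48.2), against 21.3% of all CLK peaks. That CLK peak was Usp28, with an FDR of 4.88%, while the stronger CLK peak at Usp36 had 7.32%. None of the 4 peaks bound by CLK alone passed, at FDRs of 5.24 to 5.52%, where 16.8% of all peaks of the class did. Most CLK peaks lay just above this cutoff, as the quartiles of the whole list were 5.05 and 5.54%. The cutoff therefore separates CLK peaks by small differences in FDR.

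Position along the gene varied widely among the members. The deposited table placed 6 of 29 peaks within 1000 bp of the start site (20.7%, interval 7.99 to 39.7), at Rnf145, Usp28, Fbxo30, Trim37, Fbxo33 and Fbxo31, against 16.5% of all peaks. Of these 6 peaks 4 had an e-box (66.7%, against 50.3% of all peaks so close to a start), and of the 23 farther ones 5 did (21.7%, against 17.2%). Inside the gene lay 15 peaks (51.7%, 32.5 to 70.6), against 42.3% of all peaks, and 7 peaks were over 50000 bp from the start (24.1%, against 35.5% of all peaks). When the summit was set against the start sites of coding transcripts in GENCODE M1, 9 of 29 were within 1000 bp of one (31.0%, 15.3 to 50.8), against 18.7% of all peaks. The 3 added were Fbxl5, Trim55 and the second Usp36 peak, the last pair being at the starts of other genes. In all, 7 of the 29 peaks had the coding start of another gene nearer than that of the gene named.

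**Figure D4:**
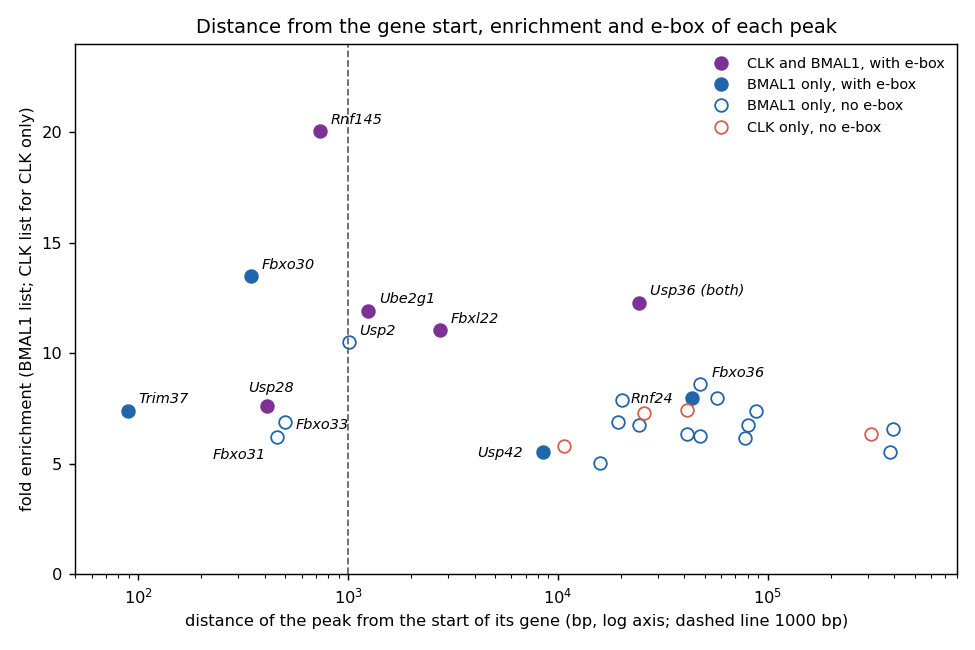
Fold enrichment of each of the 29 peaks (BMAL1 list, or CLK list for peaks bound by CLK alone) against its distance from the start of the assigned gene (bp, log axis); colour gives the binding class and filled points have an e-box within 100 bp of the summit. The 6 peaks with a fold above 10 are the 4 shared peaks other than Usp28, with Fbxo30 and Usp2, and all but the shared Usp36 peak lie within 2729 bp of the start.

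Counted by gene, 28 of the 372 coding genes of GENCODE M1 with such a symbol had a peak (7.53%, interval 5.06 to 10.7), where 6.70% of all 22238 coding gene symbols had one. That share counts the 1489 coding symbols of GENCODE M1 found among the 1816 symbols of the deposited table. Any coding gene listed there under another name is missing from it, while all 28 members matched. The 6.70% may therefore be too low wherever it is used here. F-box genes had the most, with a peak at 10 of 76 genes (13.2%, 6.49 to 22.9), 8 of them BMAL1 alone, and 1 each for both factors and CLK alone. Among deubiquitinases 5 of 51 Usp genes had a peak (9.80%, 3.26 to 21.4), 2 of the 6 peaks being shared and 4 BMAL1 alone. Of 78 Rnf genes 5 had one, with 1 shared, 3 BMAL1 alone and 1 CLK alone, and of 67 Trim genes 4 had one, each BMAL1 alone. Of 42 Ube genes 3 had one, 1 in each class.

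None of the 8 Cul genes, which encode the scaffolds of cullin ligases, had a peak (interval up to 36.9%), and 1 of the 50 Psm genes had one (2.00%, 0.0506 to 10.6). The share of all coding gene symbols lay within both intervals. The intervals of the families overlapped, and the families were set apart by symbol after results of these data were known, so their order is a description.

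**Figure D5:**
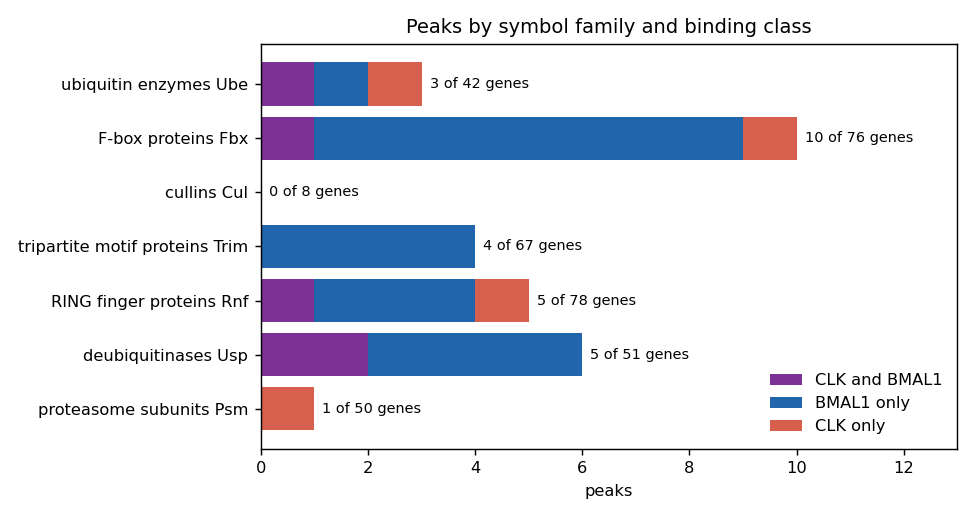
Number of peaks at each symbol family, split by binding class (purple both factors, blue BMAL1 alone, red CLK alone), with the number of coding genes that had a peak out of those annotated. The F-box bar is the longest, with 10 peaks, and the cullin bar is empty.

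Ubiquitin system genes with other symbols were counted in the same way. Of 197 listed genes (E1 and other E2 enzymes, HECT and further RING ligases, cullin partners, other deubiquitinases and proteasome partners), 14 had a peak (7.11%, near the share of all coding gene symbols), 1 of them shared, 9 BMAL1 alone and 5 CLK alone, with Znrf2 counted under both of the latter. The shared gene was Dcun1d4, which encodes a factor that promotes cullin neddylation. Its peak lay 6446 bp upstream of the gene, with a CLK score of 234.17 and a fold of 16.67 beside a BMAL1 score of 131.98 and a fold of 11.95, and it held 2 e-boxes. Here the CLK fold was the higher one, unlike at the 5 shared peaks above. Of the peaks with 1 factor the highest scores were those of Cand1 (CLK, 74.78), a cullin exchange factor, Ubqln1 (CLK, 70.20), a proteasome shuttle, and Pomp (BMAL1, 64.91), a proteasome assembly factor.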

How the data were processed

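Mouse liver ChIP-seq libraries for CLK, BMAL1 and Input at ZT8 were analysed from the deposited peak lists. Per the labels, reads were processed by the authors with CASAVA 1.6 and Bowtie against mm9, and peaks were called per library against the Input with MACS (p-value threshold 1e-05, tags of 36 bases). The version of MACS was not given in the sources used here. The deposited lists give, per peak, the count of tags, the score (10 times the negative log10 of the p-value), the fold enrichment as a ratio to local background, and the FDR as a percent. The authors assigned peaks to the gene that contained them, or else to the closest start site, and inspected the shared ones by hand.

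Members were the table's peaks whose gene symbol began with Usp, Ube, Fbxl, Fbxo, Fbxw, Cul, Trim, Rnf or Psma to Psmg and a number. They were joined to the lists by position. Distances to the start sites of the table were taken from the centre of the peak, and those to GENCODE starts from the summit. Members and gene lists were chosen with earlier results of these data known. All members were named, with full values for the shared peaks, the strongest peaks of each other class, genes with 2 peaks and clock-linked genes. Other ubiquitin genes were named when shared or among the 3 of highest score bound by one factor. CACGTG and CACGTT were searched on both strands within 100 bp of the summit (the CLK summit for shared peaks), in the NCBIM37 genome with GENCODE M1. Intervals are exact (Clopper-Pearson and Poisson, 95%). The scripts (Python 3.11.15, pandas 2.3.3, numpy 2.4.6, scipy 1.17.1, pysam 0.24.0, matplotlib 3.10.9) were tested on simulated data. With 1 library per antibody, no p-value was computed.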

Additional observations from a re-analysis of the deposited data

How the results depend on the processing

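Of 46 values recomputed under other settings for 8 results, 35 stayed within the interval, or for medians the interquartile range, of the reported value and 11 moved outside it. A score threshold of 100, read from the CLK list for shared peaks, kept 4 peaks, 0.0% of them bound by CLK alone. Over the whole table it kept 197 peaks, 26 of them bound by CLK alone. The same threshold within each list raised the median fold to 11.93 in the BMAL1 list and to 9.61 in the CLK list, the last being 1 peak. An FDR of at most 5%, read like the first threshold, kept 13 peaks, 12 bound by BMAL1 alone (92.3%) and 0.0% by CLK alone. Over the whole table it kept 723 peaks, 561 bound by BMAL1 alone and 92 by CLK alone. Taking either list, which was chosen after the data were seen, a score of at least 100 kept 7 peaks, 57.1% shared, 42.9% BMAL1 alone and 0.0% CLK alone, with an e-box in 71.4%, and the FDR also left 0.0% CLK alone. So the shared share depends on which list sets the threshold. The score threshold favoured shared peaks in the whole table too, where 32.2% of them reached it in the CLK list. Of all peaks bound by BMAL1 alone 7.53% reached it in their own list, and of those bound by CLK alone 4.74%. No whole-table share was computed with either list, but all 7 peaks reached a score of 100 in the BMAL1 list. Of all peaks, 234 did so, 103 of them bound by BMAL1 alone and the others shared, with an e-box in 60.3%. Most peaks above this BMAL1 score were thus shared in the background too. The values of the 7 peaks are therefore not a trait of these genes. The 0.0% CLK alone left by the FDR in either list has no such background here. With 1 mismatch allowed, 75.9% of the peaks held an e-box, against 71.0% of all peaks. Limiting to peaks whose nearest coding start is that of the gene named, and using GENCODE starts, were also chosen after the data were seen.

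No paired analysis was possible because each antibody has 1 library. For the same reason no library was left out, and counting error is the only error given. The depth of 1 run limits weak peaks: most members have under 30 tags, and a peak below the threshold is not listed. The Input shared by both lists, and the deeper CLK library with fewer peaks, cannot be told apart from differences between the factors.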
